A study of Mus musculus with 6 samples.

Results

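The genes described are 10 members of the BCL-2 family that decide whether a T cell survives or dies through its mitochondria: Bcl2, Bcl2l1, Bcl2l11, Mcl1, Bax, Bak1, Bad, Bid, Bbc3 and Pmaip1. They were chosen by name. A gene was measured where a probe set (a group of array probes read as one value) carried its symbol and no other, and the set with the highest mean over the 6 arrays stood for the gene. By this rule 9 of the 10 genes were measured, among 12393 genes in all; Bax had no such probe set and was not analysed here. The 9 genes had 24 probe sets, 5 of them for Bcl2l11.

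The arrays read mRNA of CD4+CD25- T cells, the helper T cells left after CD25-bearing cells are removed by flow sorting. All cells were of the B6 mouse strain and were activated on plate-bound antibodies to CD3 and CD28. All were infected with a retrovirus, grown in 10% FBS at 7% CO2 and collected 5 days after activation and infection. WT-mock cells were wild-type and carried the empty vector. KO-mock cells had the genotype miR-17-92f/f CD4-cre+, in which Cre made in T cells removes the floxed miR-17-92 cluster, and carried the same empty vector. KO-miR-17 cells had that genotype and carried a retrovirus with miR-17. Each group had 2 arrays, which the labels call biological replicates without saying whether they were separate mice, so p-values measure the spread between these samples. No wild-type cells with the miR-17 vector were analysed here, and neither the extent of the deletion nor the level of miR-17 was measured by these arrays. The age of the mice is not given in the labels.

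BCL-2 proteins meet on the outer membrane of mitochondria. BCL-2, BCL-XL (from Bcl2l1) and MCL-1 keep a cell alive by holding the pore formers BAX and BAK in check, and the BH3-only proteins BIM (from Bcl2l11), PUMA (Bbc3), NOXA (Pmaip1), BID and BAD set off death by binding the survival proteins or by activating the pore formers. BIM is the main BH3-only protein in the death of activated T cells. Bcl2l11 is also a well known target of the miR-17-92 cluster, whose microRNAs bind sites in mRNAs through bases 2 to 8, the seed, and lower their output.

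The mature microRNAs of the cluster, printed 5′ to 3′ with the seed in capitals, show which seeds the floxed cluster encodes and which of them the vector carries. All 6 lie on the plus strand of chromosome 14 in the RefSeq table of build GRCm38.p6. The vector's miR-17 shares its seed with miR-20a, and miR-18a differs from them within the seed:
mmu-miR-17-5p: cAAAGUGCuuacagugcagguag
mmu-miR-20a-5p: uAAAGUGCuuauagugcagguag
mmu-miR-18a-5p: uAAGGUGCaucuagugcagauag
The seed of the miR-19 pair and that of miR-92a are not carried by a miR-17 vector:
mmu-miR-19a-3p: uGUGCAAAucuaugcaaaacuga
mmu-miR-19b-3p: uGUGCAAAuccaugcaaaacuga
mmu-miR-92a-3p: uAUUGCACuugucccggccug
The labels name no deletion of the paralogous cluster on chromosome 5, minus strand, 2 members of which carry the miR-17 seed:
mmu-miR-106b-5p: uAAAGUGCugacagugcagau
mmu-miR-93-5p: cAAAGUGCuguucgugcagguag

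Values are log2 probe set intensities, on which a difference of 1 is 2-fold; differences are given ± the standard error of the fit, with 2 arrays in each group. Values of different probe sets depend on their probes, so differences between groups were taken within a probe set. The mean marker levels below combine different probe sets, so levels of different cell types can be compared only roughly. A gene was called at a limma adjusted p under 0.05 over all 12393 genes. Array medians lay between 5.71 and 5.76, and the arrays of a group correlated over probe sets at r = 0.994 to 0.995. The 9 measured of 11 CD4 T cell markers had mean levels of 10.66 to 10.74 in WT-mock, 10.42 to 10.50 in KO-mock and 10.35 to 10.45 in KO-miR-17 cells, and 1 of the 9, Thy1, was called lower in both deficient groups. Markers of 7 other blood cell types had mean levels between 3.65 and 5.38, and none was called. In bulk RNA such as this, fewer cells with a transcript and less of it per cell cannot be told apart. The 24 probe sets for poly-A RNAs, which are added to a sample as controls, were lower on the KO-mock than on the WT-mock arrays by a mean of -0.57, in 24 of 24 sets, and on the KO-miR-17 arrays by -0.54, also in 24 of 24. KO-miR-17 and KO-mock arrays differed by 0.03 in these sets. In each group the mean over these sets was also lower on replicate 2 than on replicate 1. Replicates 1 and 2 read 7.93 and 7.63 in WT-mock, 7.40 and 7.02 in KO-mock, and 7.46 and 7.02 in KO-miR-17 cells. The part of the markers and of these controls in the differences below was not tested.

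Mcl1, Bbc3 and Bcl2l11 had all 4 deficient arrays below both wild-type arrays, and Bak1 had all 4 above them. Over all genes, the groups did not overlap in 49.9% for KO-mock and 50.4% for KO-miR-17 against WT-mock. The share of all genes with all 4 deficient arrays on 1 side is not given. Of the members only Bcl2l11 was called in KO-mock against WT-mock cells in the fit used here, and it was lower, not higher. Its brightest probe set, 1456005_a_at, read 9.23 and 9.08 on the WT-mock arrays, 8.61 and 7.85 on the KO-mock arrays, and 8.38 and 8.42 on the KO-miR-17 arrays. All 4 arrays of deficient cells lay below both wild-type arrays, and KO-mock replicate 2 was the lowest of the 6. The KO-miR-17 values lay between the KO-mock pair. KO-mock minus WT-mock was -0.92 ± 0.22, or 1.90-fold lower, with a limma adjusted p of 0.0480; only 1.23% of all genes had a more negative difference. KO-miR-17 minus WT-mock was -0.75 ± 0.22, 1.69-fold lower, which did not pass (limma adjusted p = 0.0844). KO-miR-17 minus KO-mock was 0.17 ± 0.22, with a 95% interval of -0.33 to 0.67 and a limma adjusted p of 0.9995, so neither a change of up to that size nor its absence was shown. The sign of this difference rested on single arrays: it was 0.55 without KO-mock replicate 1 and -0.21 without KO-mock replicate 2.

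The call of Bcl2l11 in KO-mock cells rested on a narrow margin. It was kept in 1 of the 6 fits that leave out 1 array, at -1.30 without KO-mock replicate 1. Without KO-mock replicate 2 the difference was -0.55 (limma adjusted p = 0.139), without WT-mock replicate 1 it was -0.85 (0.225) and without WT-mock replicate 2 it was -0.998 (0.106). Leaving out KO-miR-17 replicate 1 or 2 changed only the spread, and gave 0.0571 and 0.0558. With the replicate number as a block the adjusted p was 0.00789 for KO-mock and 0.0168, now called, for KO-miR-17 against WT-mock.

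**Figure D1:**
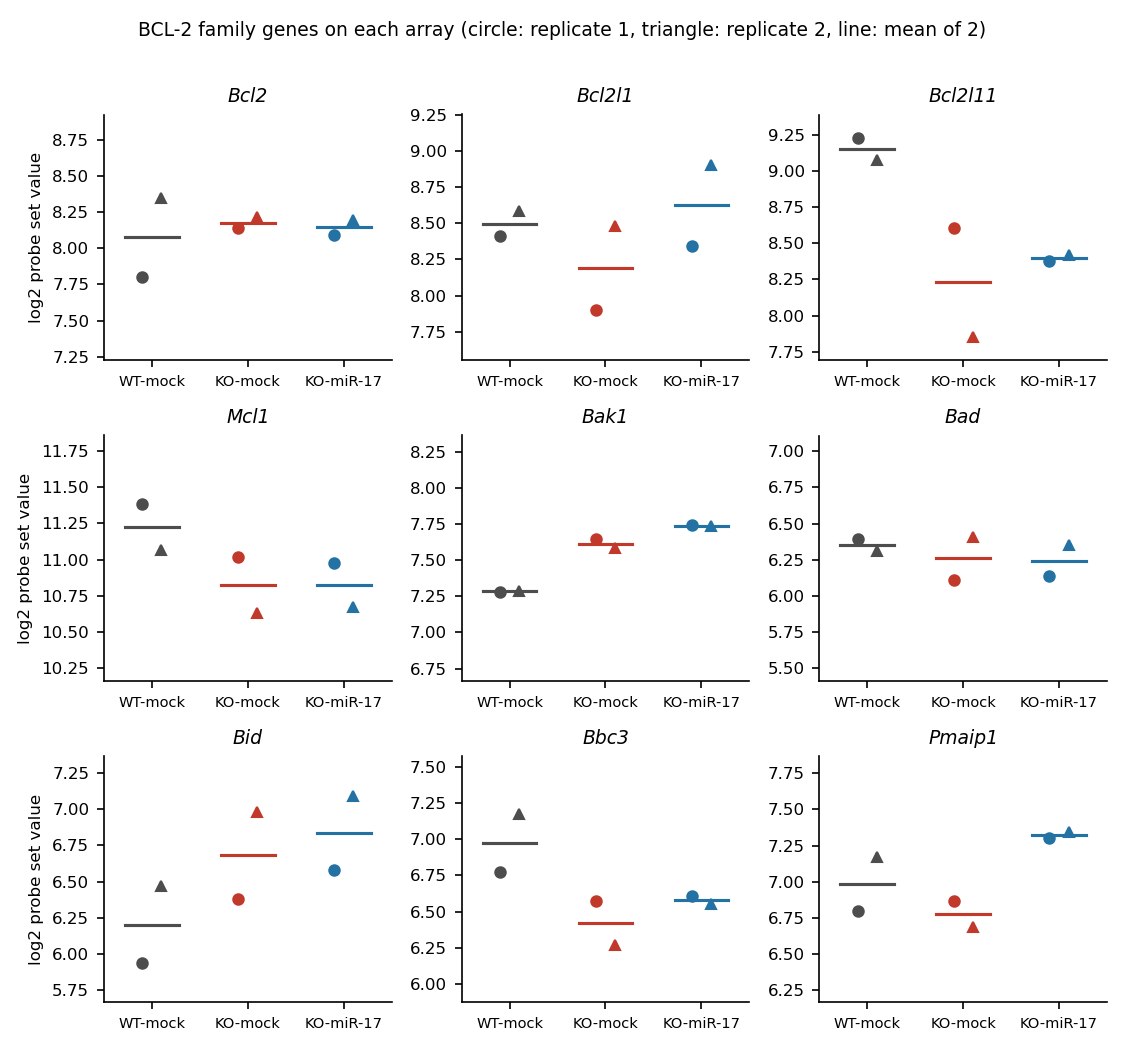
The log2 value of the probe set that stands for each of the 9 genes is plotted on every array, by group, with a circle for replicate 1, a triangle for replicate 2 and a line at their mean; each panel spans the same number of log2 units, but the panels start at different levels. For Bcl2l11 the 4 deficient arrays, at 7.85 to 8.61, lie below the wild-type arrays at 9.08 and 9.23, and for Bak1 they lie above them.

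The other probe sets of Bcl2l11 were read one by one, with p-values adjusted over all 20380 probe sets with a single symbol. Probe set 1435448_at read 9.21 and 9.04 in WT-mock, 8.50 and 7.83 in KO-mock, and 8.39 and 8.39 in KO-miR-17 cells. Its values ran almost alongside those of the brightest set, and its KO-mock minus WT-mock difference of -0.96 ± 0.20 was called (limma adjusted p = 0.0376). That call was kept in 3 of 6 fits without 1 array, being lost without either WT-mock array (-0.88 and -1.04) or without KO-mock replicate 2 (-0.62), and it was lost without a trend (limma adjusted p = 0.0598). Set 1456006_at read 7.19 and 7.09, then 6.78 and 6.08, then 6.55 and 6.54 in the same order. Set 1435449_at read 6.27 and 6.48, then 5.87 and 4.92, then 5.54 and 5.88. In both of these sets the wild-type arrays were again the highest pair, with differences of -0.71 ± 0.21 (limma adjusted p = 0.105) and -0.98 ± 0.29 (limma adjusted p = 0.102). In this fit the brightest set itself missed the threshold, with a limma adjusted p of 0.0533.

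The fifth set, 1426334_a_at, read 4.54 and 4.41 in WT-mock, 4.53 and 4.28 in KO-mock, and 4.19 and 4.35 in KO-miR-17 cells, close to the lower quartile of the arrays at 3.99 to 4.17. Its KO-mock and WT-mock arrays overlapped, with a difference of -0.07 ± 0.14 (limma adjusted p = 0.857). So 1 of 5 Bcl2l11 sets was called lower in KO-mock against WT-mock cells, where 2.1% of all sets were. Between KO-miR-17 and WT-mock the 5 differences lay from -0.75 to -0.21 and 0 of 5 were called, against 2.13% of all sets called lower. Between KO-miR-17 and KO-mock they lay from -0.14 to 0.32, with 0 called, and in the 4 brighter sets the sign turned, to between -0.23 and -0.11, without KO-mock replicate 2. With the replicate block the 4 brighter sets were called lower in KO-mock cells, with limma adjusted p from 0.00458 to 0.0471, and 3 of them in KO-miR-17 cells. The block called 8.57% of all genes lower in KO-mock and 8.82% in KO-miR-17 cells, both against WT-mock.

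**Figure D2:**
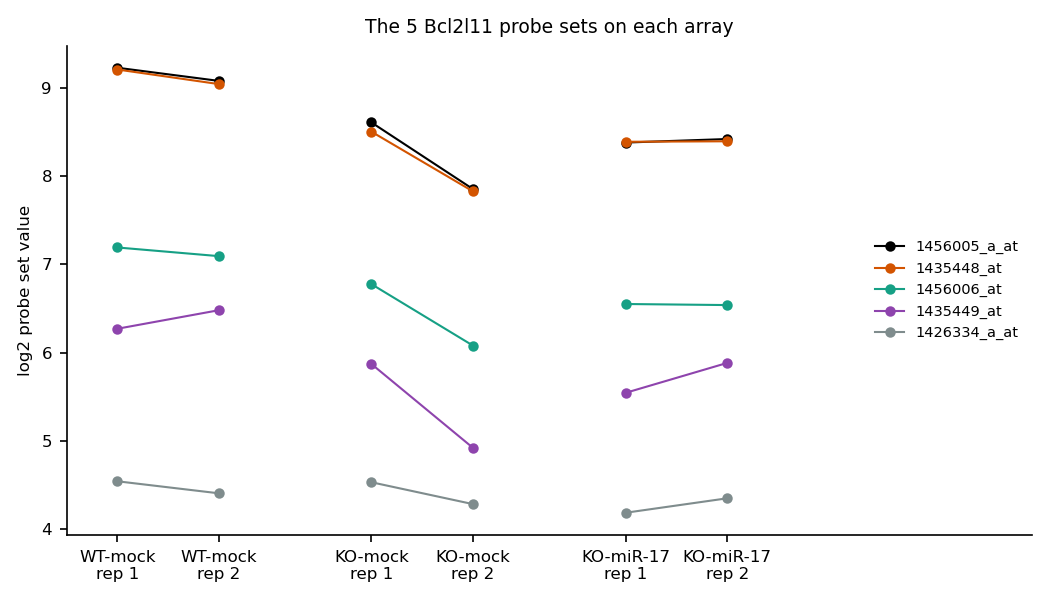
The log2 value of each of the 5 Bcl2l11 probe sets is plotted on the 6 arrays, in 1 colour per set, with a line joining the 2 replicates of a group; heights of different sets cannot be compared. The 4 brighter sets drop from the WT-mock to the KO-mock arrays, by -0.71 to -0.98, while the lowest set, near 4.4, differs by -0.07.

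Bbc3 encodes PUMA, a BH3-only protein that p53 can switch on. It read 6.77 and 7.17 in WT-mock, 6.58 and 6.27 in KO-mock, and 6.61 and 6.55 in KO-miR-17 cells, all 4 deficient arrays below the wild-type pair. The KO-mock minus WT-mock difference was -0.55 ± 0.17 (limma adjusted p = 0.114) and the KO-miR-17 minus WT-mock difference -0.39 ± 0.17 (limma adjusted p = 0.236). Neither passed, though with the replicate block the first had a limma adjusted p of 0.0456. Without WT-mock replicate 2 the first was -0.35 and the second -0.19.

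Pmaip1 encodes NOXA, which binds MCL-1. It read 6.79 and 7.17 in WT-mock, 6.86 and 6.69 in KO-mock, and 7.30 and 7.34 in KO-miR-17 cells. The KO-mock arrays fell within or below the wild-type range, while both KO-miR-17 arrays lay above the other 4. KO-miR-17 minus KO-mock was 0.55 ± 0.15, or 1.46-fold, a difference larger than that of 99.4% of all genes in this comparison. It did not pass after adjustment (limma adjusted p = 0.9995), as no gene did. KO-mock minus WT-mock was -0.21 ± 0.15 (limma adjusted p = 0.523) and KO-miR-17 minus WT-mock 0.34 ± 0.15 (limma adjusted p = 0.248).

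Bid, a BH3-only protein that caspase-8 cleaves to link death receptors to mitochondria, read 5.94 and 6.47 in WT-mock, 6.38 and 6.98 in KO-mock, and 6.58 and 7.09 in KO-miR-17 cells. Replicate 2 was above replicate 1 in each group, by 0.51 to 0.60, and the groups KO-mock and WT-mock overlapped. Bid differed by 0.48 ± 0.27 in KO-mock (limma adjusted p = 0.373) and by 0.63 ± 0.27 in KO-miR-17 cells (limma adjusted p = 0.214), both against WT-mock. The fit with the replicate block, which removes such a shared shift, called both, with limma adjusted p of 0.00883 and 0.00282. Without the block, leaving out 1 array moved the differences between 0.18 (without KO-mock replicate 2) and 0.78 (without KO-mock replicate 1) in KO-mock cells, and between 0.37 (without WT-mock replicate 1) and 0.90 (without WT-mock replicate 2) in KO-miR-17 cells. A second Bid set, 1448560_at, differed by 0.11 and 0.46 in the same comparisons, neither called.

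Bad, a BH3-only protein kept inactive by survival kinases, read 6.40 and 6.31 in WT-mock, 6.11 and 6.41 in KO-mock, and 6.14 and 6.35 in KO-miR-17 cells. The 3 groups overlapped. Its differences from WT-mock were -0.09 ± 0.16 in KO-mock, with a 95% interval of -0.46 to 0.27, and -0.11 ± 0.16 in KO-miR-17 cells, with limma adjusted p of 0.789 and 0.729. A second Bad set, 1416582_a_at, differed by -0.22 and -0.21 in the same comparisons, neither called.

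Of the survival genes, Mcl1, which encodes the short-lived MCL-1 protein, had values below wild-type in the deficient cells. Its brightest set, 1448503_at, read 11.39 and 11.07 in WT-mock, 11.02 and 10.63 in KO-mock, and 10.97 and 10.67 in KO-miR-17 cells. Replicate 1 was the higher array in each group, by 0.30 to 0.39, and all 4 deficient arrays lay below the wild-type pair. The difference from WT-mock was -0.40 ± 0.16 in KO-mock (limma adjusted p = 0.204) and -0.40 ± 0.16 in KO-miR-17 cells (limma adjusted p = 0.195), neither past the threshold. With the replicate block both were called, with limma adjusted p of 0.00251 and 0.00232. Without the block, leaving out 1 array moved them between -0.60 (without KO-mock replicate 1) and -0.21 (without KO-mock replicate 2) in KO-mock cells, and between -0.56 (without WT-mock replicate 2) and -0.24 (without WT-mock replicate 1) in KO-miR-17 cells.

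The 5 other Mcl1 probe sets were examined after their values were seen, since they did not all follow the brightest one. Set 1437527_x_at read 10.49 and 10.17 in WT-mock, 9.97 and 9.58 in KO-mock, and 9.59 and 9.35 in KO-miR-17 cells. Its KO-miR-17 minus WT-mock difference was -0.85 (limma adjusted p = 0.0291). Sets 1416880_at, 1456243_x_at and 1456381_x_at differed by -0.83, -0.80 and -0.90 and were called too (limma adjusted p = 0.0293, 0.0336 and 0.0328), while 1416881_at, at -0.43, and the brightest set, at -0.40, were not (limma adjusted p = 0.112 and 0.209). Thus 4 of 6 Mcl1 sets were called lower in KO-miR-17 against WT-mock cells, where 2.13% of all sets were. These 4 sets share a target, so they are not separate evidence, and 3 of them are of the _x_at type, whose probes can also match other transcripts.

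Each of the 4 calls was kept in 4 of 6 fits that leave out 1 array. Without WT-mock replicate 1 the differences were -0.67 to -0.75 and without KO-miR-17 replicate 2 they were -0.66 to -0.76, with none of the 4 called. All 4 were also lost without a trend, with limma adjusted p of 0.0538 to 0.0583. In KO-mock against WT-mock the 6 sets differed by -0.59 to -0.22 and none was called. With the replicate block 5 of the 6 were called lower, and all 6 in KO-miR-17 against WT-mock. The block called 8.57% and 8.82% of all genes lower in these comparisons, and its share over all probe sets was not computed. In KO-miR-17 against KO-mock the 5 dimmer sets differed by -0.33 to -0.21 and the brightest by 0.00, with none called.

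**Figure D3:**
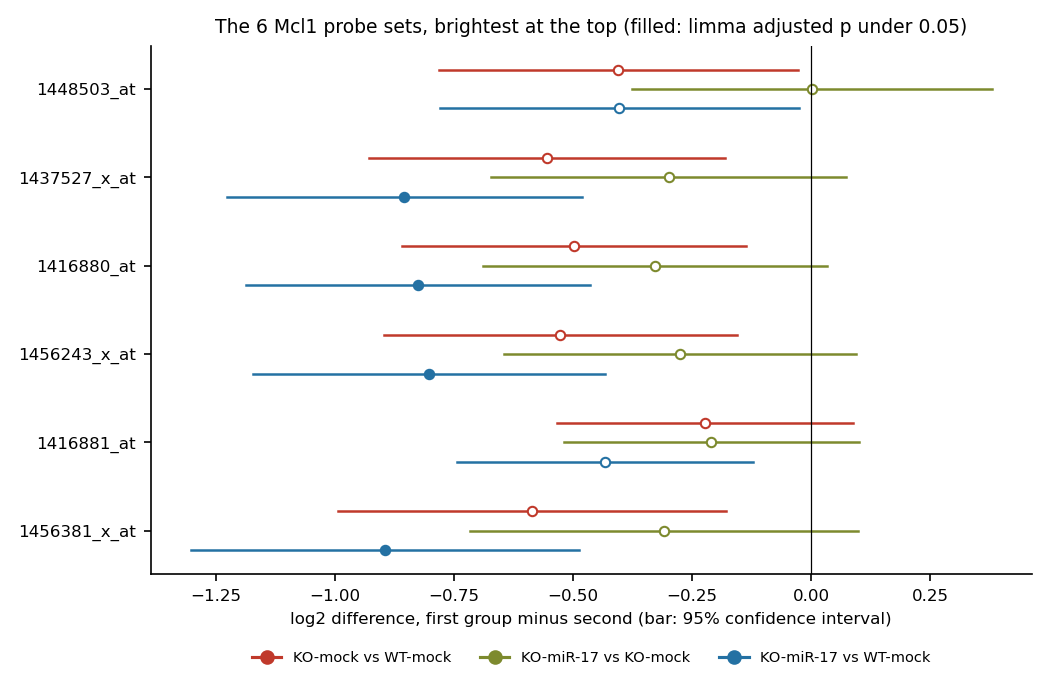
The log2 difference of each of the 6 Mcl1 probe sets is plotted on the x axis for the 3 comparisons, with the brightest set at the top; bars are 95% confidence intervals and filled points were called. The 4 filled points, all KO-miR-17 against WT-mock, lie between -0.90 and -0.80, while the brightest set lies at -0.40.

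Bcl2, the founding survival gene, read 7.80 and 8.35 in WT-mock, 8.14 and 8.21 in KO-mock, and 8.09 and 8.20 in KO-miR-17 cells. Both deficient groups lay inside the span of the wild-type pair. Its differences were 0.10 ± 0.17 for KO-mock against WT-mock, with a 95% interval of -0.30 to 0.50, and -0.03 ± 0.17 for KO-miR-17 against KO-mock, with limma adjusted p of 0.793 and 0.9995.

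Bcl2l1, which encodes BCL-XL, a survival protein that CD28 signals raise in activated T cells, read 8.41 and 8.58 in WT-mock, 7.90 and 8.48 in KO-mock, and 8.34 and 8.90 in KO-miR-17 cells. The groups overlapped, and replicate 2 was the higher array in each. KO-miR-17 minus KO-mock was 0.43 ± 0.23, with a 95% interval of -0.10 to 0.96 (limma adjusted p = 0.9995), and KO-mock minus WT-mock was -0.30 ± 0.23 (limma adjusted p = 0.528). Its 3 other sets differed by -0.07 to 0.13 in these comparisons, and the means of 2 of them lay near the lower quartile of the arrays.

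Of the pore formers, Bak1 was measured, and its replicates lay closer together than those of any other member in each group. It read 7.28 and 7.29 in WT-mock, 7.64 and 7.58 in KO-mock, and 7.74 and 7.74 in KO-miR-17 cells. All 4 deficient arrays lay above the wild-type pair, and the KO-miR-17 arrays above the KO-mock arrays. Bak1 rose in KO-miR-17 against WT-mock cells by 0.45 ± 0.11, or 1.37-fold (limma adjusted p = 0.0461). Against WT-mock, KO-mock cells differed by 0.33 ± 0.11 (limma adjusted p = 0.118), and KO-miR-17 differed from KO-mock by 0.13 ± 0.11 (limma adjusted p = 0.9995), so the 2 deficient groups were not shown to differ. The call was lost in all 6 fits that leave out 1 array, at 0.45 to 0.46 with limma adjusted p from 0.0749 to 0.253, while the replicate block also called KO-mock against WT-mock (limma adjusted p = 0.0223). A dim second set, 1425716_s_at, differed by 0.27 in KO-miR-17 against WT-mock and was not called. In the fit over all 20380 probe sets the brighter Bak1 set missed the threshold in that comparison (limma adjusted p = 0.0532).

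Over the 9 measured genes, KO-mock against WT-mock gave 0 genes called higher, where 3.74% of all genes were, and 1 called lower, where 2.79% were. The groups did not overlap in 4 of the 9, beside 49.9% of all genes, so the family stood no further apart than genes at large by that count. The median difference of the 9 was -0.21, beside -0.03 over all genes. With the replicate block 5 of the 9 were called, Bak1 and Bid higher and Bcl2l11, Mcl1 and Bbc3 lower, where the block called 13.4% of all genes higher and 8.57% lower.

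Adding miR-17 to deficient cells gave 0 of 9 genes called higher and 0 of 9 lower against KO-mock, and 0% of all genes were called in either direction by limma. At an unadjusted p under 0.05, 1 of the 9 genes passed, Pmaip1, and 487 of all 12393 genes did. The groups did not overlap in 2 of the 9, Bak1 and Pmaip1, beside 28.9% of all genes, and the median difference was 0.16 beside 0.00. The block called 0 of the 9, with 0.121% of all genes higher and 0.186% lower.

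KO-miR-17 against WT-mock gave 1 of 9 genes called higher, Bak1, where 4.03% of all genes were, and 0 called lower, where 2.77% were. The groups did not overlap in 6 of the 9, beside 50.4% of all genes, and the median was 0.07 beside -0.03. The block called 4 of the 9, Bak1 and Bid higher and Bcl2l11 and Mcl1 lower, with 15.3% of all genes higher and 8.82% lower. The 3 comparisons share arrays in pairs, so their differences are not independent of each other.

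**Figure D4:**
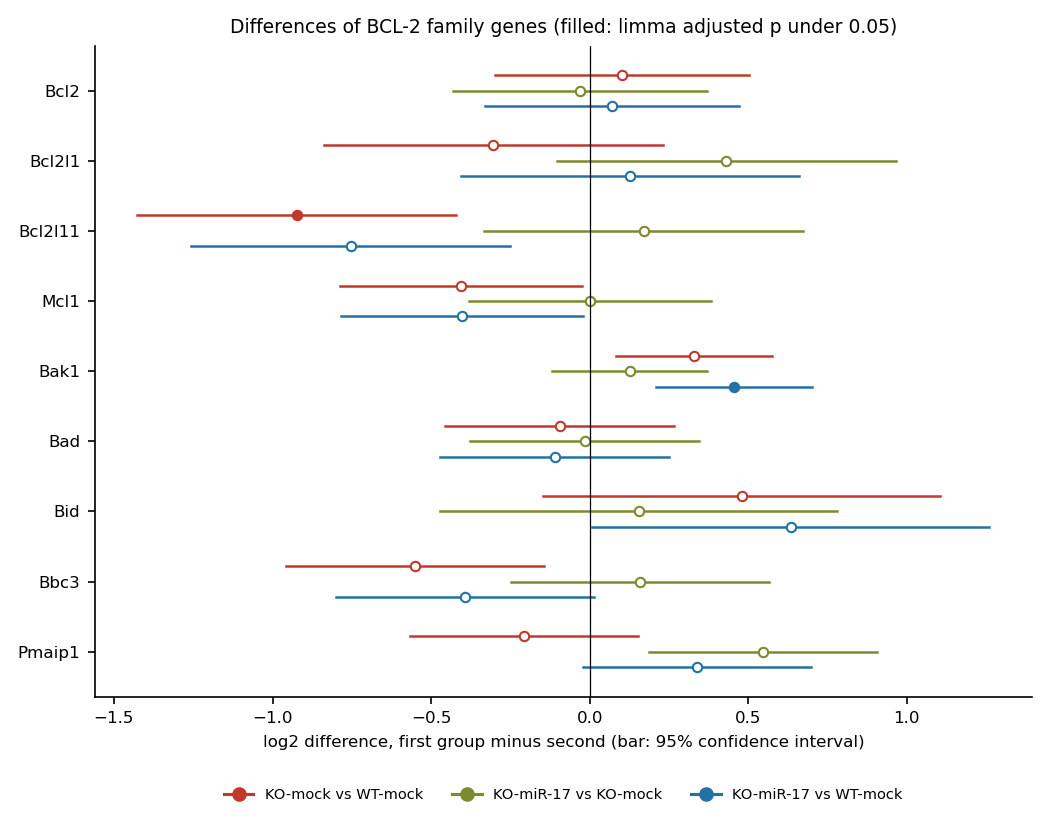
The log2 differences of the 9 genes are plotted on the x axis for the 3 comparisons, each the first group minus the second; bars are 95% confidence intervals and filled points were called by limma at an adjusted p under 0.05. The filled points are Bcl2l11 at -0.92 in KO-mock against WT-mock and Bak1 at 0.45 in KO-miR-17 against WT-mock.

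Genes around the family were read from 5 lists. Of the 15 other BCL-2 family genes 10 were measured, and 1 was called lower in KO-mock against WT-mock cells, where 2.79% of all genes were. Bnip3, a mitochondrial protein induced by low oxygen, fell in KO-mock against WT-mock cells by 0.72 ± 0.16 (limma adjusted p = 0.0422), a call kept in 2 of 6 fits without 1 array. It read 10.71 and 11.03 in WT-mock, 9.92 and 10.37 in KO-mock, and 10.47 and 10.58 in KO-miR-17 cells, where it was not called against either group. With the replicate block it was also called in KO-miR-17 against WT-mock, at -0.34 (limma adjusted p = 0.0249). The median of the 10 was -0.05 for KO-mock and -0.11 for KO-miR-17 against WT-mock, beside -0.03 over all genes in both.

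Downstream of the mitochondria, where released cytochrome c starts the caspases, 15 of 17 genes were measured. In KO-mock against WT-mock cells 1 was called higher and 3 lower, where 3.74% and 2.79% of all genes were. Casp6, an executioner caspase, read 10.03 and 9.88 in WT-mock, 8.41 and 8.43 in KO-mock, and 8.67 and 8.31 in KO-miR-17 cells. The deficient arrays all lay more than 1 log2 unit below the wild-type pair. It fell by 1.53 ± 0.13, or 2.89-fold, in KO-mock (limma adjusted p = 0.00256) and by 1.46 ± 0.13 in KO-miR-17 cells (limma adjusted p = 0.00457), and both calls were kept in 6 of 6 fits without 1 array. Birc3 and Birc2, relatives of the caspase inhibitor XIAP, fell by 0.55 and 0.50 in KO-mock cells (limma adjusted p = 0.0465 and 0.0478). Birc3 was also called in KO-miR-17 cells, at -0.54 (limma adjusted p = 0.0483). The Birc3 calls were kept in 2 and 1 of 6 fits without 1 array, and that of Birc2 in 0. The block also called Birc2 in KO-miR-17 cells, at -0.42 (limma adjusted p = 0.00582), and, against WT-mock in KO-mock cells, Diablo at 0.48 and Cycs, the gene of cytochrome c, at 0.39 (limma adjusted p = 0.00496 and 0.0166).

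Aifm1, a mitochondrial flavoprotein, read 7.88 and 8.16 in WT-mock, 8.60 and 8.83 in KO-mock, and 8.05 and 8.22 in KO-miR-17 cells. It rose by 0.69 ± 0.14 in KO-mock cells (limma adjusted p = 0.0294, kept in 3 of 6 fits without 1 array). The KO-miR-17 arrays lay near the wild-type ones, but the difference of -0.58 ± 0.14 from KO-mock did not pass (limma adjusted p = 0.837); with the replicate block it did (limma adjusted p = 0.0377). Diablo, which frees caspases from their inhibitors, rose by 0.62 in KO-miR-17 against WT-mock cells (limma adjusted p = 0.0289, kept in 2 of 6). In that comparison 1 of the 15 was called higher and 2 lower, where 4.03% and 2.77% of all genes were. The median of the 15 was -0.02 for KO-mock and 0.00 for KO-miR-17 against WT-mock, beside -0.03 over all genes in both.

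Of 23 partners and regulators of BCL-2 proteins 22 were measured. In KO-mock against WT-mock cells 2 were called higher and 4 lower, where 3.74% and 2.79% of all genes were. Their median was 0.02, beside -0.03 over all genes. Foxo1, a transcription factor of a family known to switch on Bcl2l11, read 9.22 and 9.08 in WT-mock, 8.67 and 8.51 in KO-mock, and 8.64 and 8.67 in KO-miR-17 cells, with all deficient arrays below the wild-type pair. It fell by 0.56 ± 0.10 in KO-mock (limma adjusted p = 0.0262) and by 0.49 ± 0.10 in KO-miR-17 cells (limma adjusted p = 0.0340), each kept in 2 of 6 fits without 1 array. Stat5b and Stat5a, which carry cytokine signals to genes such as Bcl2l1 and Mcl1, fell by 0.53 and 0.60 in KO-mock cells (limma adjusted p = 0.0194 and 0.0209, kept in 2 and 3 of 6 fits without 1 array). Stat5b was also called in KO-miR-17 cells, at -0.39 (limma adjusted p = 0.0414), a call kept in 0 of 6 fits, and the block added Stat5a there, at -0.42 (limma adjusted p = 0.00795).

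Pim2, a survival kinase that inactivates BAD, read 8.86 and 9.03 in WT-mock, 7.62 and 8.18 in KO-mock, and 8.34 and 9.03 in KO-miR-17 cells. The KO-mock arrays were the lowest pair, and the fall of 1.04 ± 0.25 was called (limma adjusted p = 0.0493, kept in 2 of 6 fits without 1 array). Its difference of 0.78 ± 0.25 between KO-miR-17 and KO-mock did not pass (limma adjusted p = 0.9995). Ywhaq, a 14-3-3 protein of the kind that holds phosphorylated BAD in the cytosol, rose by 0.63 in KO-mock (limma adjusted p = 0.0194) and by 0.60 in KO-miR-17 cells (limma adjusted p = 0.0189), kept in 3 and 4 of 6 fits without 1 array. E2f1, a cell cycle factor and known miR-17 target, rose by 0.60 ± 0.13 in KO-mock cells (limma adjusted p = 0.0342, kept in 0 of 6 fits without 1 array). E2f1 differed by -0.36 ± 0.13 between KO-miR-17 and KO-mock, which did not pass (limma adjusted p = 0.9995). In KO-miR-17 against WT-mock cells 1 of the 22 was called higher and 2 lower, where 4.03% and 2.77% of all genes were. The median of the 22 was 0.03, beside -0.03 over all genes.

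Of 10 genes of the death receptor pathway 9 were measured and none was called in any comparison in the fit without the block. The 2 with the smallest unadjusted p in KO-mock against WT-mock were Tnfrsf1a, a TNF receptor, at -0.42 (limma adjusted p = 0.138) and Cflar, an inhibitor of caspase-8, at -0.26 (limma adjusted p = 0.224). In KO-miR-17 against WT-mock they were Tnfsf10, the ligand TRAIL, at 0.41 and the adaptor Fadd at 0.31 (limma adjusted p = 0.162 and 0.244). Tnfsf10 was dim, at 4.29 and 4.38 in WT-mock and 4.83 and 4.68 in KO-miR-17 cells. The lower quartile of the arrays was 3.99 to 4.17. At an unadjusted p under 0.05, 2 of the 9 passed in the first of these comparisons, where 2671 of all 12393 genes did, and 1 in the other, where 2820 did. With the replicate block Tnfrsf1a was called in KO-mock cells (limma adjusted p = 0.00808) and Fadd in both deficient groups (limma adjusted p = 0.0421 and 0.0306).

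All 12 p53 targets were measured. Btg2, a growth inhibitor, read 9.70 and 9.60 in WT-mock, 8.63 and 8.15 in KO-mock, and 8.65 and 8.49 in KO-miR-17 cells. It fell by 1.26 ± 0.16 in KO-mock (limma adjusted p = 0.00922, kept in 5 of 6 fits without 1 array) and by 1.08 ± 0.16 in KO-miR-17 cells (limma adjusted p = 0.0145, kept in 4 of 6). Ccng1, a cyclin in p53 feedback, fell by 0.57 in KO-miR-17 against WT-mock cells (limma adjusted p = 0.0297, kept in 3 of 6). No other of the 12 was called. Thus 1 of the 12 was called lower in KO-mock and 2 in KO-miR-17 cells, where 2.79% and 2.77% of all genes were. The median was -0.22 for KO-mock and -0.21 for KO-miR-17 against WT-mock, beside -0.03 over all genes in both. Without the block, no gene of the 5 lists was called between KO-miR-17 and KO-mock. The block was fitted over all genes, but its calls in the lists were read for the named genes only. Among these it called Aifm1 between KO-miR-17 and KO-mock.

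**Figure D5:**
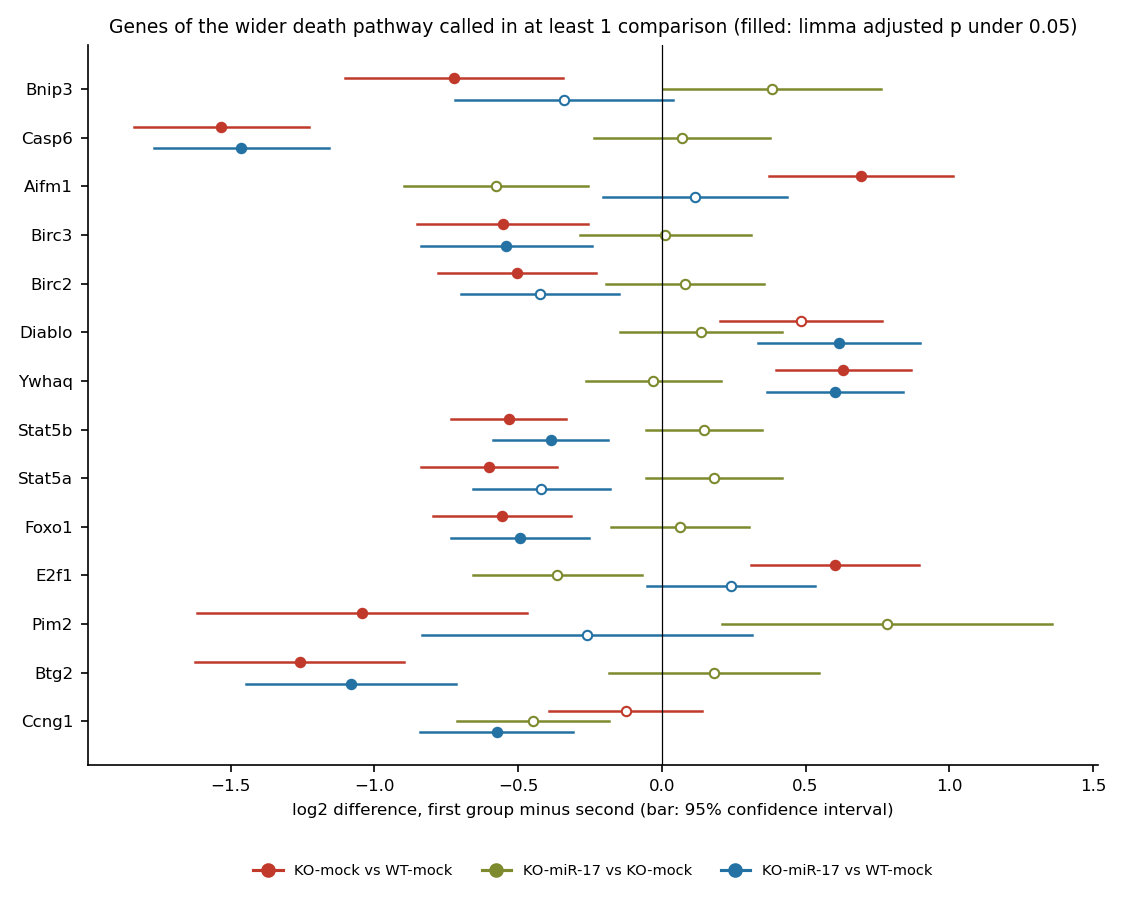
The log2 differences of the 14 genes of these lists that were called in at least 1 comparison, chosen by that result, are plotted on the x axis for the 3 comparisons; bars are 95% confidence intervals and filled points were called. Casp6 and Btg2 lie below -1 in both deficient groups against WT-mock, while the points of KO-miR-17 against KO-mock are all open.

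Since factors of the FOXO, STAT5 and E2F families were among the called regulators, the 250 bases before the start of each member were searched on both strands for a FOXO motif (GTAAACA), a STAT motif (TTCNNNGAA) and an E2F motif (TTTCGCGC or TTTGGCGC). The RefSeq table of build GRCm38.p6 held 15 such windows for 9 of the 10 genes. The Bcl2l11 window at chr2:128125788-128126037, plus strand, is 1 of 2 for this gene and holds 1 FOXO match, while the other holds none. The match is shown in capitals and starts 227 bases before the start:
Bcl2l11: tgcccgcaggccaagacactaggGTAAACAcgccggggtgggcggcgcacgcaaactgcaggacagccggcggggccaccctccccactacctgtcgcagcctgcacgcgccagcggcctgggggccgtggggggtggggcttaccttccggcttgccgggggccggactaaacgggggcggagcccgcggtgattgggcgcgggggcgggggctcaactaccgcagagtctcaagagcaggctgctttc
Of 32851 windows of this length in the table, 3.17% hold the FOXO motif, 7.02% the STAT motif and 0.654% the E2F motif. Of the 15 member windows, 2 hold the FOXO motif (the other belongs to 1 of 3 Bbc3 starts), 1 holds the E2F motif (1 of 3 Bcl2l1 starts) and 0 hold the STAT motif. A match of letters does not show that a factor binds.

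Across the 6 arrays, the genes whose values ran most like those of Bcl2l11 were sought among 588 genes that spanned at least 1 log2 unit and lay above the array median. They were Cdkn1b (Pearson r = 0.981), an inhibitor of cell cycle kinases, Calcrl (0.971), Col6a2 (0.965), Smpdl3a (0.964) and Selenop (0.964). These r values describe 6 arrays of 3 groups that share their group differences. Cdkn1b read 10.08 and 10.04 in WT-mock, 9.40 and 8.95 in KO-mock, and 9.38 and 9.31 in KO-miR-17 cells. As with Bcl2l11, KO-mock replicate 2 was the lowest array and both wild-type arrays the highest. Cdkn1b was chosen for its r with Bcl2l11 on these same arrays, so the shared order is not a separate finding.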

How the data were processed

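The deposited values were log2 intensities of probe sets, which the authors computed by RMA (background subtraction, quantile normalization and summary of the probes of a set), per the submitters' processing notes, with no version. The log base was taken from that convention and the range of values. Quantile normalization hides a change shared by most transcripts. Of 22690 probe sets, 64 were controls, 20380 carried a single gene symbol in GEO's platform annotation, 691 carried more and 1555 carried none here.

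One model was fitted to the 6 arrays by limma 3.58.1 under R 4.3.3 (functions lmFit, contrasts.fit and eBayes, the last with a trend), with 3 residual and 4.69 prior degrees of freedom, and each comparison's p-values received the Benjamini-Hochberg adjustment. The procedure was tested on simulated data with independent noise on each array. That setting had no shift shared by replicate number, so it does not show how the fit behaves where there is one. With 2 arrays against 2, an exact permutation test cannot go below 0.333. The number of arrays limits the precision. Figures were drawn with matplotlib 3.10.9.

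The genes named were all members, every Bcl2l11 probe set, up to 6 called genes of each list, and the 5 genes most like Bcl2l11. For the death receptor pathway, where the fit used called none, the 2 with the smallest unadjusted p were named against WT-mock. For other comparisons of a list without a call, these pairs were not all named. Members and lists were chosen with earlier results of these data known. The Mcl1 probe sets, and the trial of the named list genes under the alternatives, were added after the data were seen.

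The groups share replicate numbers. The difference between replicates 1 and 2 correlated over genes at 0.429 (WT-mock and KO-mock), 0.507 (WT-mock and KO-miR-17) and 0.634 (KO-mock and KO-miR-17). The numbers may therefore pair the samples. This is a hint from the data, since the labels do not say what a number marks. The fit used for the calls left such a pairing out, and only the alternative with the block took it in. Values with the replicate number as a block stand beside results whose call it changes. Alternatives were the spread without a trend, 2 groups only, the block, the mean of probe sets, sets without _s_at and _x_at, dim genes left out, 2 other scalings and each array left out.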

Additional observations from a re-analysis of the deposited data

How the results depend on the processing

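The 27 member differences were recomputed under 14 alternatives. Of these 378 values 16 changed sign, none of a called difference. The count of members called in KO-mock against WT-mock, 1 in the fit used, was 0 without a trend, 0 with 2 groups only, 0 with the mean of probe sets, 0 after quantile normalization again and 5 with the replicate block, and it ranged from 0 to 1 when 1 array was left out. The count in KO-miR-17 against WT-mock, also 1, was 0 without a trend, 0 with the mean of probe sets, 0 after quantile normalization again and 4 with the replicate block, and it ranged from 0 to 1 with 1 array left out, where the 1 was Bcl2l11 in place of Bak1. With 2 groups only it was again 1, and again Bcl2l11 (limma adjusted p = 0.0165). In KO-miR-17 against KO-mock it was 0 under all 14. Bcl2l11 in KO-mock against WT-mock had limma adjusted p of 0.0751 without a trend, 0.0556 with 2 groups only, 0.0954 with the mean of probe sets and 0.0576 after quantile normalization again. Mcl1 in KO-miR-17 against WT-mock was -0.70 with the mean of its probe sets (limma adjusted p = 0.0523). The block changed no other call of the members, and of the list genes named, than those given above. Over all genes, 810 were called in KO-mock against WT-mock, 2723 with the block and 95 to 693 with 1 array left out. In KO-miR-17 against WT-mock 843 were called, 508 without a trend, 2983 with the block and 74 to 697 with 1 array left out. In KO-miR-17 against KO-mock 0 were called and 38 with the block. The causes of these changes were not tested. With 1 array left out, the lone array of a group is assumed to vary like the others.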
